A study of Mus musculus with 12 samples.

Results

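Toll-like receptors and the co-receptor CD14 were followed as 10 transcripts, namely Tlr1, Tlr2, Tlr3, Tlr4, Tlr6, Tlr7, Tlr8, Tlr9, Tlr13 and Cd14, which are 10 of the 39756 genes named in the count table. They were picked by gene symbol, with earlier results of these data known, and all 10 had enough counts to be tested. The mouse receptors Tlr5, Tlr11 and Tlr12 are not among them. RNA came from brain hemispheres of 12 male C57BL/6J mice, 9 to 10 weeks old by the study's methods, in groups of 4, and the labels give the ischemic side as the tissue of all 12, Sham included. Sham mice had sham surgery and saline. Vehicle mice received saline and underwent tMCAO (transient middle cerebral artery occlusion), which stops flow with a filament for 45 min before reperfusion. LJP mice had the same occlusion and received Laminaria japonica polysaccharide, a sulfated polysaccharide from brown seaweed, by mouth once daily for 14 days before surgery and onward. The study carried the middle of its 3 doses forward from dose finding, but neither the dose nor the time after surgery is given for the sequenced mice themselves. The hemisphere is a mixture of cell types, so fewer cells of a type and less RNA per cell cannot be told apart in any value given here.

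Toll-like receptors are membrane proteins that recognize microbial products and molecules released from damaged cells. Tlr1, Tlr2, Tlr4 and Tlr6 act at the cell surface, where Tlr2 pairs with Tlr1 or Tlr6 to bind lipopeptides, and Tlr4 binds lipopolysaccharide with help from Cd14, which hands the ligand over. Tlr3, Tlr7, Tlr8, Tlr9 and Tlr13 act in endosomes and sense nucleic acids. Nearly all of them signal through the adaptor Myd88 to the transcription factor NF-kappa B, while Tlr3 uses the adaptor Ticam1 instead. In the brain, microglia and macrophages are the main cells that carry these receptors, and Tlr3 is also known from astrocytes and neurons.

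Total counts per mouse lay between 17960353 and 22216315. Counts are given as CPM, the count relative to the TMM-scaled library size, and as CPM per kilobase of transcript where levels of different genes are compared. The samples carried the markers of brain tissue, with 5 neuron markers summing to between 3319 and 5938 CPM in the 12 mice. The Vehicle libraries differed among themselves. The summed level of 7 neutrophil markers was 159.5, 40.05, 0.646 and 4.85 CPM in Vehicle mice 1 to 4, against 0.164 to 0.346 CPM in Sham mice, where all 7 markers had at most 3 counts in each mouse, and 0.307 to 0.816 CPM in LJP mice, where Ly6g, Cxcr2 and Camp were at that floor. The summed level of 7 monocyte and infiltrating macrophage markers was 229.9, 325.2, 55.2 and 105 CPM in the same Vehicle mice, 10.03 to 15.7 in Sham mice and 18.7 to 93.4 in LJP mice. Differences that involve the Vehicle group were therefore also fitted without Vehicle mice 1 and 2, a pair chosen after the data were seen, and the log2 ratio from that fit is given for every member, and for pathway genes described by name where the call was lost or the value printed moved by over 1.5 times.

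In Sham mice the receptors were expressed at low levels, and Cd14 and Tlr3 led. Cd14 measured 1.62 ± 0.334 CPM per kilobase (SD, n = 4) and Tlr3 1.44 ± 0.116 (SD, n = 4), and these 2 overlapped between mice. Tlr9 followed at 0.613 ± 0.0824 (SD, n = 4), below every value of Tlr3 and above every value of Tlr7, which measured 0.415 ± 0.104 (SD, n = 4). Tlr7 and Tlr13 (0.372 ± 0.0678, SD, n = 4) overlapped. Tlr4, Tlr2, Tlr1, Tlr6 and Tlr8 lay lower, between means of 0.208 for Tlr4 and 0.0429 for Tlr8, and each overlapped the next in this order. In raw counts, Tlr8 reached 2 to 7 and Tlr6 4 to 9 per Sham mouse, so fold changes of these 2 genes rest on few reads. Tlr1, Tlr6 and Tlr8 did not reach the count filter (0.531 CPM) in all 4 Sham mice, and passed it through the ischemic groups.

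In the Vehicle group the order was different, with Cd14 at 25.9 ± 18 CPM per kilobase (SD, n = 4), followed by Tlr13 at 5.11 ± 2.52, Tlr2 at 3.67 ± 0.302, Tlr7 at 2.75 ± 1.15 and Tlr3 at 1.84 ± 0.323 (SD, n = 4 each). Among the 10 genes only Cd14 stood clear of the next gene in every Vehicle mouse, and all other neighbours in the order overlapped. In the LJP group Cd14 was again first, at 7.81 ± 3.11 (SD, n = 4) and clear of the next gene, Tlr2, at 2.53 ± 0.991 (SD, n = 4). Tlr2, Tlr13, Tlr7 and Tlr3 overlapped in turn, and every LJP value of Tlr3 lay above those of Tlr9.

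**Figure D1:**
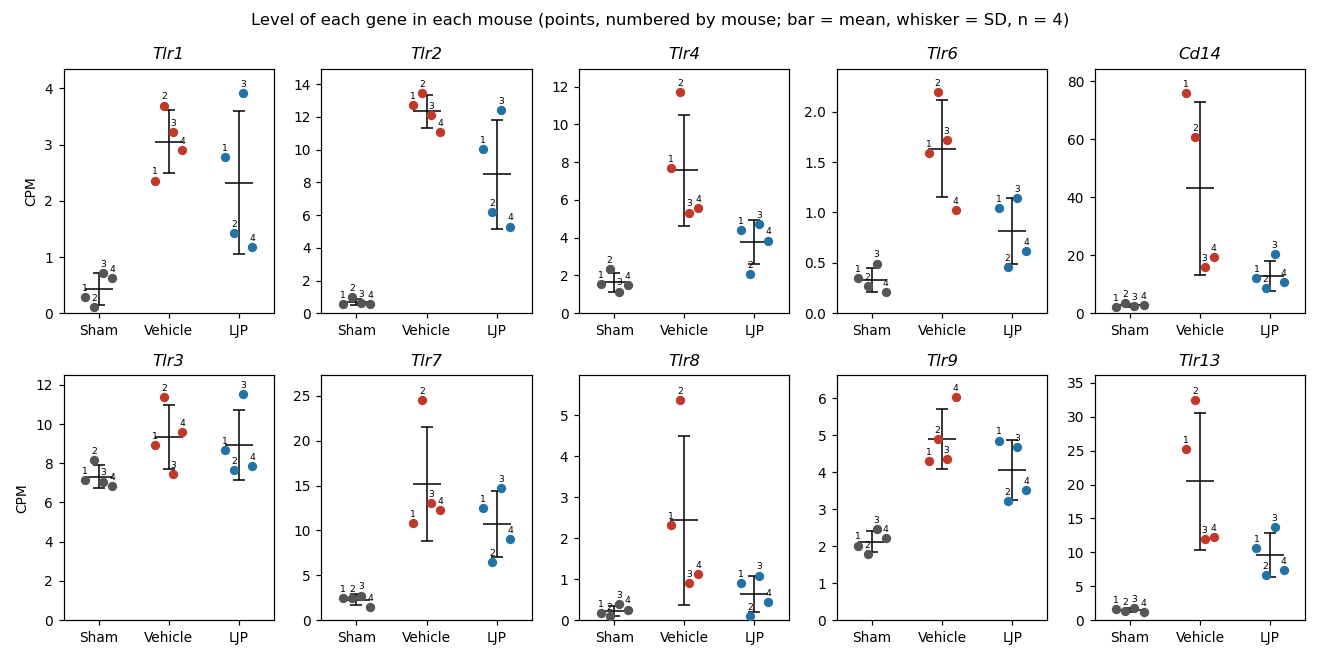
Level of each of the 10 genes in CPM (vertical axes, each from 0) in the 4 Sham, 4 Vehicle and 4 LJP mice, with points numbered by mouse, the mean as a bar and the SD as whiskers. Cd14 lies between 2.19 and 3.43 CPM in Sham mice and reaches 75.8 CPM in Vehicle mouse 1, while Tlr3 overlaps in all 3 groups.

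The reads of Tlr1 and Tlr6 cannot be separated everywhere. These neighbouring genes lie on the reverse strand of chromosome 5 (GRCm38, Tlr1 from 64924680 to 64933600 and Tlr6 from 64953092 to 64970942). Their GENCODE transcripts shared 259 stretches of 100 bases, which is 7.89% of those in Tlr1 and 7.09% of those in Tlr6, and none of the other 44 pairs of members shared any. The longest identical stretch, 229 bases of coding sequence within 1 exon of each gene, is printed because a read inside it fits both transcripts. It lies at chr5:64925537-64925765 in Tlr1 and at chr5:64953828-64954056 in Tlr6.

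Tlr1 and Tlr6 shared stretch: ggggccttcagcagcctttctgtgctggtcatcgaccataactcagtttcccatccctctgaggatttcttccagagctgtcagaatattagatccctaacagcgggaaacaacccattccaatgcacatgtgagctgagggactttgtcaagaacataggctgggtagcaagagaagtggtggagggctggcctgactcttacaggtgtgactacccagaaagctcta

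How the counting treated such reads is not given in the sources used here, so the counts of Tlr1 and Tlr6 are uncertain to that extent. Tlr6 also overlaps Fam114a1 on the opposite strand over 868 bases, and the strand setting of the counting is likewise not given. Fam114a1 had 63 to 85 counts in Sham mice and 82 to 325 in Vehicle mice, against 4 to 9 and 19 to 51 for Tlr6, so reads of Fam114a1 in the overlap could have been counted for Tlr6.

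Promoter windows were read for members held in the set of RefSeq promoters used here (GRCm38.p6). Each ran from 250 bases before to 50 bases after a transcript start. This gave 9 windows for 7 of the 10 genes, and none was read for Cd14, Tlr4 and Tlr7. Of the 9 windows, 5 held at least 1 of 4 motifs searched on both strands. The motifs were NF-kappa B (GGANTTTCC), IRF (GAAANNGAA), AP-1 (TGANTCA) and PU.1 (GAGGAAGT), which were present in 1.25%, 8.56%, 7.81% and 3.2% of all 32851 promoters. The windows of Tlr2 and Tlr3, the genes with the highest and the lowest Vehicle to Sham ratio, are shown with those of Tlr1 and Tlr9, with matches in capitals. They lie at chr3:83841559-83841858 (Tlr2, reverse strand), chr8:45410331-45410630 (Tlr3, reverse), chr5:64933509-64933808 (Tlr1, reverse) and chr9:106222348-106222647 (Tlr9, forward).

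Tlr2: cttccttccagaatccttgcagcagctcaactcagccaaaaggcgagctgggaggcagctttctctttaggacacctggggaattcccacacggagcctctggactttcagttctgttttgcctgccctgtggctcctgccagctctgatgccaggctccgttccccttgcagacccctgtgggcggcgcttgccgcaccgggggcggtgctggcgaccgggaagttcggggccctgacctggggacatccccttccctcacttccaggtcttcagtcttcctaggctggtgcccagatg

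Tlr3: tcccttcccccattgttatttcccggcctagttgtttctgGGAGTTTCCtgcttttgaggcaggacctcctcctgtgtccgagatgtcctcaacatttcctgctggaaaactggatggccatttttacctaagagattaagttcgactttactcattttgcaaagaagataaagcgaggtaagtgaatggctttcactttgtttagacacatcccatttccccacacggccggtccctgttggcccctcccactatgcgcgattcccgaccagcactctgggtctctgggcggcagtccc

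Tlr1: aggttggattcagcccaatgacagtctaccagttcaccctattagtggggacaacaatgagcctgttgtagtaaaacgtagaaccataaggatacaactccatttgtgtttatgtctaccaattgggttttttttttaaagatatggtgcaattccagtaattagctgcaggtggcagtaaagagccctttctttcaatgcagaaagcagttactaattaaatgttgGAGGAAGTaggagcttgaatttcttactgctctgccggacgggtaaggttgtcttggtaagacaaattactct

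Tlr9: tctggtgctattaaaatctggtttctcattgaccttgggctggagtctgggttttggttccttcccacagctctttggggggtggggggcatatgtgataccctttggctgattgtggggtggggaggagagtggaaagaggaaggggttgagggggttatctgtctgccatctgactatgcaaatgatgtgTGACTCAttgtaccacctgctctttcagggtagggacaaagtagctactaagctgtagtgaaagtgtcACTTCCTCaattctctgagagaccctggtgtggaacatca

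The Tlr2 window and the Tlr13 window held none of the 4 motifs in the letters searched. Other spellings of these motifs were not searched, so a window without a match may still hold such a site. A Tlr6 window held 2 overlapping IRF matches and the Tlr8 window held 1. The Tlr3 window held an NF-kappa B match from base 41. The Tlr1 window held a PU.1 match from base 228, while the other Tlr1 window held none. The Tlr9 window held an AP-1 match from base 193 and a PU.1 match, on the opposite strand, from base 261. The capitals mark letters only, and no binding was measured in these samples.

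Comparing Vehicle with Sham asks how ischemia and reperfusion changed the receptors. All 10 genes were higher in Vehicle mice, 9 of them at an adjusted p below 0.05 over all genes tested (edgeR's quasi-likelihood test with Benjamini-Hochberg adjustment), where 22.7% of all 17558 genes were called higher. Tlr3 was the exception. The same 9 genes did not overlap between the 2 groups of 4 mice, which was true of 20.7% of all genes in this direction. The median log2 ratio (the fitted fold change on the log2 scale) of the 10 genes was 2.76, beside a median of all genes close to 0 (3.538e-05). Of the 7 genes that reached the filter in the Sham mice alone, 6 were called.

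Among the cell surface receptors, Tlr2 (Entrez Gene 24088, chromosome 3 from 83836272 to 83841824, reverse strand), the shared partner in the lipopeptide receptors, rose most. Its level was 0.577, 0.981, 0.603 and 0.570 CPM in Sham mice 1 to 4, and 12.7, 13.45, 12.1 and 11.05 CPM in Vehicle mice 1 to 4. The 4 Vehicle mice were close together and far above every Sham mouse. The increase was 17.9-fold (95% interval 11.4 to 28.1), a log2 ratio of 4.16 (SE 0.30, edgeR adjusted p = 1.54e-05).

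Tlr1 and Tlr6, its partners, rose as well. Tlr1 had 2 to 13 counts in Sham mice and 52 to 86 in Vehicle mice, a log2 ratio of 2.79 (SE 0.49, edgeR adjusted p = 0.00136). Tlr6 had 4 to 9 counts in Sham mice and 19 to 51 in Vehicle mice, a log2 ratio of 2.29 (SE 0.39, edgeR adjusted p = 0.00113). The ratio of Tlr2 to Tlr6 in CPM per kilobase was 1.12 to 3.29 in Sham mice and 5.62 to 9.87 in Vehicle mice, without overlap. The ratio of Tlr2 to Tlr1 overlapped, with 0.897 to 9.54 in Sham mice and 3.86 to 5.71 in Vehicle mice.

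Tlr4, the lipopolysaccharide receptor (chromosome 4 from 66827551 to 66846581, forward strand), was at 1.56, 2.34, 1.15 and 1.5 CPM in Sham mice and at 7.67, 11.7, 5.33 and 5.55 CPM in Vehicle mice. Vehicle mouse 2 was highest, and the groups did not overlap. The increase was 4.61-fold (95% interval 2.80 to 7.59, edgeR adjusted p = 0.000593).

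Cd14, the co-receptor of Tlr4, spread widely among Vehicle mice. It was at 2.19, 3.43, 2.36 and 2.80 CPM in Sham mice and at 75.8, 60.7, 16.04 and 19.45 CPM in Vehicle mice 1 to 4. The 2 highest values belonged to the mice with the highest neutrophil and monocyte marker sums, and the part of those cells in the level of Cd14 was not tested. The log2 ratio was 3.99 (SE 0.51, edgeR adjusted p = 0.000237), and without Vehicle mice 1 and 2 it was 2.71 (SE 0.28, edgeR adjusted p = 1.08e-05). The ratio of Cd14 to Tlr4 in CPM per kilobase was 6.69 to 9.73 in Sham mice and 14.3 to 47.0 in Vehicle mice, without overlap.

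**Figure D2:**
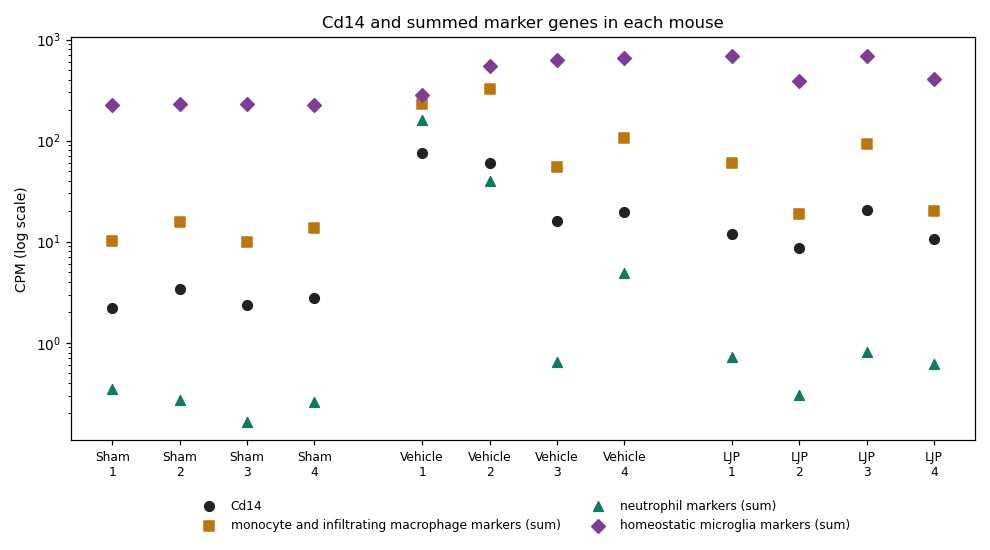
Cd14 and the summed levels of 3 lists of marker genes in each mouse, in CPM on a log scale. Neutrophil markers span 0.646 to 159.5 CPM within the Vehicle group, and Vehicle mice 1 and 2 hold both the highest neutrophil sums and the highest Cd14.

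Among the endosomal receptors, Tlr13 (chromosome X from 106143275 to 106160493, forward strand), a sensor of bacterial ribosomal RNA, rose most. It was at 1.615, 1.36, 1.81 and 1.19 CPM in Sham mice and at 25.3, 32.5, 12.0 and 12.2 CPM in Vehicle mice 1 to 4. Even the lowest Vehicle mouse lay well above the highest Sham mouse. The increase was 13.7-fold (95% interval 7.74 to 24.3, edgeR adjusted p = 8.96e-05). Without Vehicle mice 1 and 2 the log2 ratio moved from 3.78 to 3.01 (SE 0.27, edgeR adjusted p = 4.62e-06).

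Tlr7 and Tlr8 are sensors of single-stranded RNA encoded side by side on chromosome X. Tlr7 (167303380 to 167330574, reverse strand) was at 2.48, 2.51, 2.74 and 1.45 CPM in Sham mice and at 10.8, 24.6, 13.1 and 12.2 CPM in Vehicle mice. Vehicle mouse 2 stood apart at the top. The increase was 6.62-fold (95% interval 4.01 to 10.9, edgeR adjusted p = 0.000181). Tlr8 (167241123 to 167264329, reverse strand) had 3, 2, 7 and 5 counts in Sham mice and 51, 125, 17 and 21 in Vehicle mice, a log2 ratio of 3.37 (SE 0.73, edgeR adjusted p = 0.00387). Its log2 ratio was 2.10 (SE 0.66) without Vehicle mice 1 and 2, with an edgeR adjusted p of 0.0253.

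Tlr9, a sensor of unmethylated CpG DNA (chromosome 9 from 106222598 to 106226876, forward strand), rose least among the 9 genes called. It was at 1.80 to 2.47 CPM in Sham mice and 4.31 to 6.035 CPM in Vehicle mice, an increase of 2.30-fold (95% interval 1.70 to 3.10, edgeR adjusted p = 0.001005).

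Tlr3, the receptor for double-stranded RNA (chromosome 8 from 45395665 to 45411075, reverse strand), did not pass the test. It was at 7.15, 8.17, 7.07 and 6.84 CPM in Sham mice and at 8.94, 11.4, 7.43 and 9.59 CPM in Vehicle mice. Vehicle mouse 3 lay within the Sham range and the other 3 above it. The ratio was 1.28 (95% interval 0.998 to 1.64, edgeR adjusted p = 0.102), so the interval excludes a change of the size seen for any of the other 9 genes. Without Vehicle mouse 3 the adjusted p was 0.0423 (edgeR) at a log2 ratio of 0.45. The log2 ratio of Tlr3 was 0.21 without Vehicle mice 1 and 2 (edgeR adjusted p = 0.414), where those of Tlr2, Tlr1, Tlr6, Tlr4, Tlr7 and Tlr9 were 4.07, 2.79, 2.04, 1.72, 2.46 and 1.28. These 6 genes were called in that fit too.

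**Figure D3:**
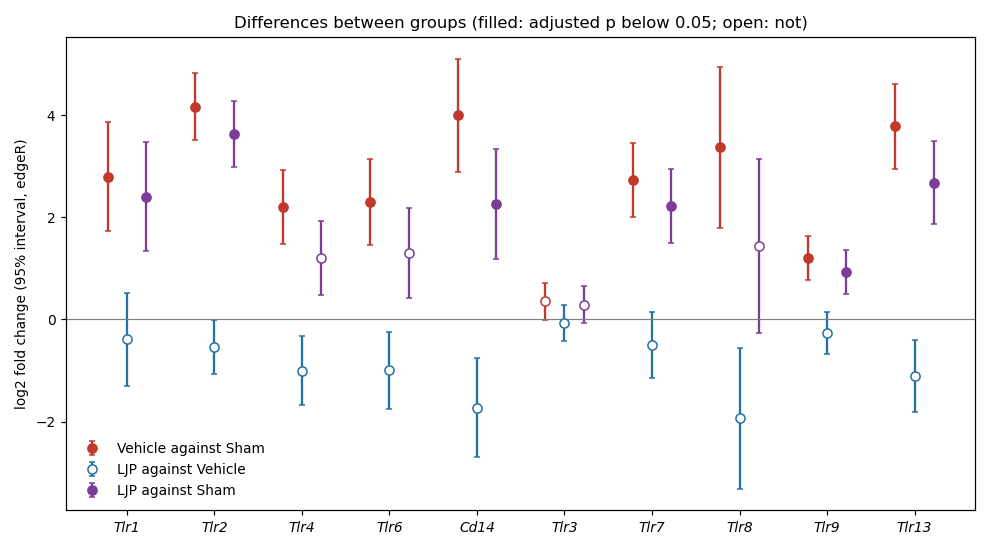
Log2 ratios with 95% intervals from edgeR (not adjusted for the number of genes) for the 10 genes in 3 comparisons, with filled points for an adjusted p below 0.05 and open points otherwise. Vehicle against Sham is filled for 9 genes, LJP against Vehicle is open for all 10, with every point below 0, and LJP against Sham is filled for 6. The comparisons share groups and are not independent.

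The unequal changes altered the make-up of the receptor transcripts. The 9 Toll-like receptors together rose from 3.52 ± 0.264 CPM per kilobase (SD, n = 4) in Sham mice to 17.6 ± 4.86 (SD, n = 4) in Vehicle mice and were at 11.3 ± 3.64 (SD, n = 4) in LJP mice. Tlr3 made up 36.6% to 44.1% of this sum in Sham mice, 9.18% to 13.3% in Vehicle mice and 13.3% to 19.1% in LJP mice. Tlr2 made up 4.72% to 8%, 16.4% to 25.8% and 18.1% to 23.6% in the same groups. Sham mice overlapped neither ischemic group in either share. The 4 surface receptors summed to 0.563 to 0.708 CPM per kilobase in Sham mice and 5.14 to 7.24 in Vehicle mice, and the 5 endosomal receptors to 2.60 to 3.12 and 8.24 to 17.2. Tlr13 and Tlr7 were similar in Sham mice, with ratios of 0.749 to 1.13, while Tlr13 exceeded Tlr7 in all 4 Vehicle mice, with ratios of 1.26 to 3.22.

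**Figure D4:**
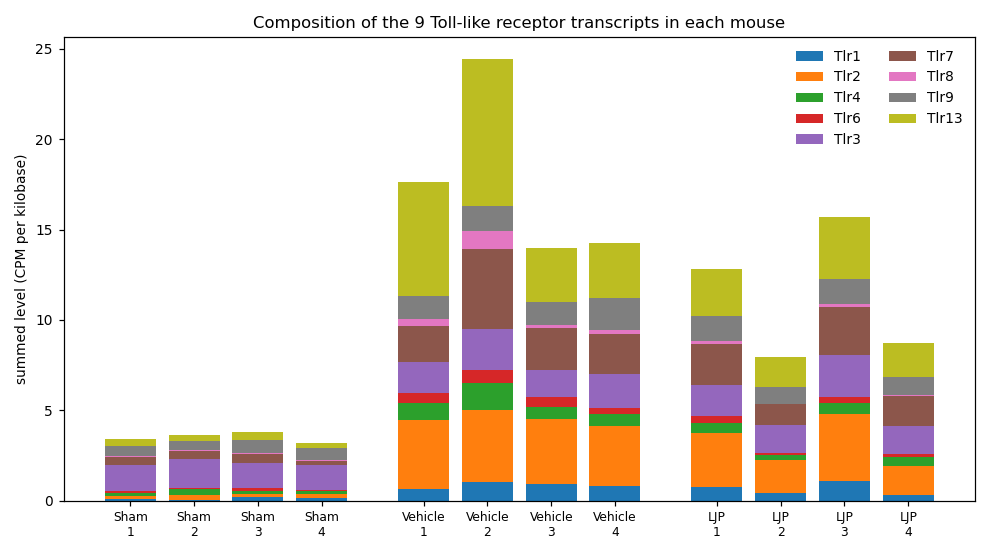
Stacked levels of the 9 Toll-like receptors in CPM per kilobase in each mouse. Tlr3 is the broadest band in each of the 4 Sham mice, and Tlr2, Tlr7 and Tlr13 fill most of the taller Vehicle and LJP bars. The tallest bar, Vehicle mouse 2, reaches 24.4.

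Markers of myeloid and other cells also differed in the same samples. All 5 border-associated macrophage markers (median log2 ratio 2.24), 3 of 5 endothelial, 2 of 5 astrocyte and 5 of 8 homeostatic microglia markers were called higher in Vehicle than in Sham mice, and 2 of 5 neuron markers lower. Of all genes, 22.7% were called higher and 17.3% lower. The 5 astrocyte markers summed to 861.6 to 901.3 CPM in Sham and 2213 to 3665 CPM in Vehicle mice, and the part of these cells in the receptor levels was not tested. The mean log2 CPM of 8 pan-myeloid genes (Aif1, Csf1r, Itgam, Ptprc, Cd68, Tyrobp, Fcer1g and Laptm5) went from 3.23 ± 0.02 (SD, n = 4) in Sham mice to 5.61 ± 0.30 (SD, n = 4) in Vehicle mice, and all 8 were called higher. To show how each receptor moved beside them, this mean was subtracted in each mouse. Tlr2, Cd14 and Tlr13 were still higher in Vehicle than in Sham mice without overlap, by 1.63, 1.27 and 1.18 on the log2 scale. Tlr3 and Tlr9, which rose less than this mean, were lower without overlap, by differences of -2.05 and -1.22. On this scale an unchanged gene also comes out lower, and the share of all genes that did was not counted. The other 5 (Tlr1, Tlr4, Tlr6, Tlr7 and Tlr8) overlapped, with differences from -0.38 to 0.34. With Vehicle mice 1 and 2 left out, the differences of Tlr2, Cd14 and Tlr13 were 1.67, 0.43 and 0.69, still without overlap, and that of Cd14 was 0.83 without Vehicle mouse 1 alone. Those of Tlr3 and Tlr9 were -2.05 and -1.02, Tlr4 moved from -0.28 to -0.55 and no longer overlapped, and Tlr8 moved from 0.28 to -0.44. These are descriptions with no test.

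The choice of reference mattered. Against 8 homeostatic microglia genes such as Tmem119 and P2ry12, whose mean log2 CPM went from 4.42 ± 0.03 (SD, n = 4) to 5.14 ± 0.71 (SD, n = 4), Tlr1, Tlr2, Tlr7, Tlr13 and Cd14 were higher without overlap, by 1.91 to 3.29. None was lower without overlap, and Tlr9 had a difference of 0.44, the opposite sign to that against the pan-myeloid genes, as did Tlr4 and Tlr6 at 1.39 and 1.28. This reference stood apart in Vehicle mouse 1, at 4.13 against 5.20 to 5.66 in Vehicle mice 2 to 4. The difference of Tlr9 was 0.16 without that mouse and 0.04 without Vehicle mice 1 and 2. Leaving out the pair also moved Tlr4 and Tlr6 to 0.51 and 0.57, Tlr8 from 1.95 to 0.62, and Tlr3 from -0.38 to -0.99, where it was lower without overlap. The 5 genes that were higher without overlap remained so, by 1.25 to 2.73. Which cells carried the receptor transcripts was not measured.

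**Figure D5:**
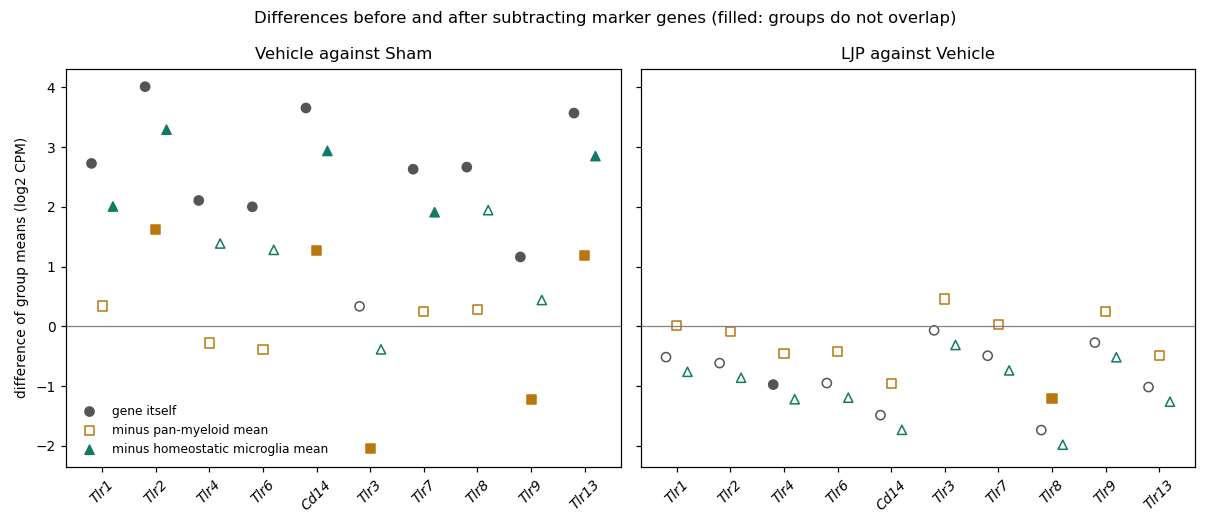
Differences between group means in log2 CPM for each gene alone (circles) and after subtracting the mean of 8 pan-myeloid genes (squares) or 8 homeostatic microglia genes (triangles), with filled symbols where the groups do not overlap. Against the pan-myeloid genes, Tlr2, Cd14 and Tlr13 stay above 0 and Tlr3 and Tlr9 fall below 0 in Vehicle against Sham.

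Comparing LJP with Vehicle asks whether the treatment changed the receptors after ischemia. All 10 genes were lower in LJP mice in the estimate, with a median log2 ratio of -0.77 beside -0.0017 for all genes, but none passed the edgeR test, in which 0.0228% of all genes (4 of 17558, all lower) were called. At an unadjusted p below 0.05, 6 members were lower and none higher, against 17.4% and 12.3% of all genes. DESeq2 called 4 members lower at an adjusted p below 0.05 (Cd14, Tlr13, Tlr4 and Tlr8), against 9.15% of the genes it tested. The cut-offs of the study's methods (a fold beyond 0.58 on the log2 scale and a raw p under 0.01), applied to the edgeR fit, gave the same 4 genes, against 5.89% of all genes. The members are few and move together within a mouse, so these shares are a description. Marker lists of other cells did not all move one way. All 8 pan-myeloid genes were lower in LJP than in Vehicle mice in the estimate (median log2 ratio -0.51), while 7 of 8 homeostatic microglia genes and all 5 neuron genes were higher (median 0.07 and 0.32), and edgeR called none of these genes. In Vehicle mice 1 to 4, 5 border-associated macrophage markers summed to 35.8, 134.8, 25.2 and 30.01 CPM and 5 endothelial markers to 492.5, 984.6, 262.9 and 289.1 CPM, while LJP mice held 12.9 to 20.01 and 187.4 to 234.1 CPM. The part of any of these cells in the differences was not tested.

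Tlr4 was the 1 member whose LJP and Vehicle groups did not overlap, which held for 5.91% of all genes in this direction. It was at 4.41, 2.10, 4.73 and 3.85 CPM in LJP mice 1 to 4, all below the lowest Vehicle mouse at 5.33. The ratio was 0.498 (95% interval 0.312 to 0.795, edgeR adjusted p = 0.0774). With Vehicle mice 1 and 2 left out, its log2 ratio was -0.53 (edgeR adjusted p = 0.443).

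Cd14 was at 12.0, 8.69, 20.45 and 10.7 CPM in LJP mice. LJP mouse 3 lay above Vehicle mice 3 and 4, and the other 3 lay below all Vehicle mice. The ratio was 0.301 (95% interval 0.154 to 0.590, edgeR adjusted p = 0.0678, DESeq2 adjusted p = 0.0139). The difference rested largely on Vehicle mice 1 and 2, and without both its log2 ratio was -0.45 instead of -1.73 (edgeR adjusted p = 0.452).

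Tlr13 and Tlr8 behaved alike in this respect. Tlr13 was at 10.6, 6.60, 13.8 and 7.36 CPM in LJP mice, a ratio of 0.466 to Vehicle (95% interval 0.286 to 0.760, edgeR adjusted p = 0.0721), and Tlr8 had 20, 2, 20 and 8 counts (0.908, 0.102, 1.09 and 0.446 CPM), a ratio of 0.262 (95% interval 0.101 to 0.681, edgeR adjusted p = 0.0869). In CPM, 1 LJP mouse reached the range of the Vehicle mice in both, and for Tlr8 LJP mouse 1 lay just under the lowest Vehicle mouse, at 0.915 CPM. Without Vehicle mice 1 and 2 their log2 ratios were -0.34 and -0.68 (edgeR adjusted p = 0.555 and 0.644).

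The estimates for Tlr2 and its partners Tlr1 and Tlr6 were also lower, and none was called. Tlr2 was at 10.04, 6.19, 12.4 and 5.295 CPM in LJP mice, with LJP mouse 3 inside the Vehicle range, a ratio of 0.688 (95% interval 0.479 to 0.989, edgeR adjusted p = 0.159). Tlr6 had a ratio of 0.501 (95% interval 0.297 to 0.846, edgeR adjusted p = 0.0971), and Tlr1 one of 0.763 (95% interval 0.406 to 1.43, edgeR adjusted p = 0.54). In Tlr1 and Tlr6, 2 LJP mice lay at or above the lowest Vehicle mouse. In the fit without Vehicle mice 1 and 2 the log2 ratios of Tlr2, Tlr6 and Tlr1 were -0.45, -0.74 and -0.40 (edgeR adjusted p = 0.486, 0.466 and 0.741), and that of Tlr6 was the lowest among the 10 genes in that fit.

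For Tlr7, Tlr9 and Tlr3 the intervals included no change. Tlr7 had a ratio of 0.704 (95% interval 0.449 to 1.10, edgeR adjusted p = 0.263), Tlr9 one of 0.831 (95% interval 0.624 to 1.11, edgeR adjusted p = 0.352) and Tlr3 one of 0.956 (95% interval 0.748 to 1.22, edgeR adjusted p = 0.805). All 4 LJP mice had a Tlr3 level above the lowest Vehicle mouse. The log2 ratios of Tlr7, Tlr9 and Tlr3 without Vehicle mice 1 and 2 were -0.24, -0.35 and 0.07 (edgeR adjusted p = 0.72, 0.517 and 0.905). Relative to the pan-myeloid genes, Tlr8 was lower in LJP than in Vehicle mice without overlap, by a difference of -1.21, on few counts and with the highest LJP mouse at -5.39 beside the lowest Vehicle mouse at -5.38, and the other 9 overlapped, with differences from -0.96 for Cd14 to 0.46 for Tlr3. With Vehicle mice 1 and 2 left out, the differences of the 10 genes ran from -0.49 for Tlr8 to 0.46 for Tlr3, and that of Cd14 was -0.12. Relative to the homeostatic microglia genes all 10 overlapped, with differences from -1.98 for Tlr8 to -0.31 for Tlr3. Leaving out Vehicle mice 1 and 2, these ran from -0.65 for Tlr8 to 0.29 for Tlr3.

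In each group 1 mouse had the highest value of most receptors. Vehicle mouse 2 had the highest value of 8 of the 10 genes among Vehicle mice. LJP mouse 3 had the highest value of 9 genes and LJP mouse 2 the lowest of 8 among LJP mice. Among Sham mice, mouse 3 was highest for 6 genes and mouse 4 lowest for 5, while mouse 2 was highest for 4 and lowest for 3. LJP mice 1 and 3 also had the higher pan-myeloid sums (628.1 and 634.2 CPM), and LJP mice 2 and 4 the lower ones (341.9 and 342 CPM). After each group's mean was subtracted, Pearson's r of log2 CPM over the 12 mice had a median of 0.57 over the 45 pairs of members, from -0.03 for Tlr1 with Tlr4 to 0.87 for Tlr8 with Tlr13. The genes share libraries, so these values describe the 12 mice only.

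Comparing LJP with Sham shows what remained after ischemia with treatment. Of the 10 genes, 6 were called higher (Cd14, Tlr1, Tlr13, Tlr2, Tlr7 and Tlr9), where 3.85% of all genes were, and the median log2 ratio was 1.83. Of the 7 genes that reached the filter in the Sham mice alone, 5 were called, and of the other 3 only Tlr1. The same 6 did not overlap between the groups, which held for 12.9% of all genes in this direction. Tlr2 was 12.3-fold higher (95% interval 7.85 to 19.3, edgeR adjusted p = 9.1e-05), Tlr13 6.40-fold (95% interval 3.64 to 11.2, edgeR adjusted p = 0.00182), Tlr1 5.28-fold (95% interval 2.52 to 11.1, edgeR adjusted p = 0.0149) and Cd14 4.79-fold (95% interval 2.27 to 10.1, edgeR adjusted p = 0.0209). Tlr7 was 4.66-fold higher and Tlr9 1.91-fold higher, with edgeR adjusted p-values of 0.00249 and 0.0182. Not called were Tlr4 (2.30-fold, 95% interval 1.39 to 3.79, edgeR adjusted p = 0.06165), Tlr6 (2.46-fold, edgeR adjusted p = 0.0951), Tlr8 (2.71-fold, edgeR adjusted p = 0.356) and Tlr3 (1.22-fold, edgeR adjusted p = 0.379). The count was 3 without Sham mouse 1 or without LJP mouse 3, when Tlr2, Tlr7 and Tlr13 were called. Relative to the pan-myeloid genes, Tlr2 and Tlr13 were higher in LJP than in Sham mice without overlap, by 1.54 and 0.69. Tlr3, Tlr6 and Tlr9, which rose less than the mean of those genes, were lower without overlap, with differences of -1.59, -0.81 and -0.97. Relative to the homeostatic microglia genes, Tlr2, Tlr13, Cd14 and Tlr7 were higher without overlap, by 2.43, 1.59, 1.20 and 1.17, and Tlr3 alone was lower, with a difference of -0.70, while Tlr6 and Tlr9 overlapped at 0.09 and -0.08.

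Other genes of the pathway were counted by role. Over 9 lists of pathway genes written from general knowledge, 77 of 92 genes passed the filter of the edgeR fit, and 50 were called higher and 2 lower in Vehicle than in Sham mice, with a median log2 ratio of 1.20, where 22.7% and 17.3% of all genes were called and the median of all genes was close to 0. Among them, 13 did not reach the count filter in the Sham mice alone and so had to be higher elsewhere, and 11 of these 13 were called higher. Of the other 64, 39 were called higher and 2 lower. The fit without Vehicle mice 1 and 2 called 41 of the 77 higher and 1 lower, with a median of 0.51, where 15.7% and 14% of all genes were called. None was called in LJP against Vehicle by edgeR. At an unadjusted edgeR p below 0.05, 32 were lower and 1 higher, against 17.4% and 12.3% of all genes. DESeq2 called 30 of the 92 listed genes lower, where it called 9.15% of the genes it tested, and some of the 92 had no adjusted p there. Of these 30, S100a8, S100a9, Tnf and Il1b had been removed by the filter of the edgeR fit. The median of that comparison was -0.47, and -0.16 without Vehicle mice 1 and 2, and the log2 ratio moved by over 1.5 times for 28 of the 34 genes outside the members named from the lists. In LJP against Sham, 19 were called higher and 2 lower, against 3.85% and 0.9% of all genes. Those 21 included 6 of the 13 genes that did not reach the filter in Sham mice.

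Of 7 tested co-receptors and ligand carriers, all 7 were called higher in Vehicle mice, and 6 without Vehicle mice 1 and 2. Cd180, a Toll-like receptor homolog of B cells and myeloid cells, rose by a log2 ratio of 3.08 (SE 0.37, edgeR adjusted p = 0.00017), and was at 17.1 CPM in Vehicle and 16.8 in LJP mice on average. Fcgr3, an Fc receptor, rose by 2.91, and Itgam, the CD11b integrin chain that is also among the pan-myeloid genes, by 2.37 (edgeR adjusted p = 5.89e-05 and 0.000243). Lbp, which carries lipopolysaccharide to Cd14, rose by 2.41 (edgeR adjusted p = 0.00606). In LJP mice Lbp averaged 5.62 CPM against 29.5 in Vehicle mice, without overlap, a log2 ratio of -2.40 (edgeR adjusted p = 0.0678). Those of Lbp without Vehicle mice 1 and 2 were 1.33 and -1.32 in these 2 comparisons, and in LJP against Vehicle those of Fcgr3 and Itgam moved from -0.96 to -0.45 and from -0.91 to -0.40. That of Cd180 moved from -0.02 to -0.27.

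Of 8 chaperones and trafficking genes of endosomal receptors, 3 were called higher. These were Slc15a3, an endosomal peptide transporter (log2 ratio 3.82), Rab7b, a small GTPase of endosomes (3.01), and Unc93b1, which escorts nucleic acid sensing receptors out of the endoplasmic reticulum (1.93), with edgeR adjusted p-values of 8.96e-05, 0.000135 and 0.000113. The median over the 8 genes was 0.27, and 22.7% of all genes were called higher. In LJP against Vehicle their log2 ratios were -0.80, -0.87 and -0.41 (edgeR adjusted p = 0.129, 0.0956 and 0.183), and those of Slc15a3 and Rab7b were -0.50 and -0.57 without Vehicle mice 1 and 2.

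Of 6 tested adaptors, 5 were called higher. Myd88, the adaptor shared by most of the receptors, rose from 4.90 to 20.4 CPM on average, a log2 ratio of 2.06 (SE 0.33, edgeR adjusted p = 0.000812). Pik3ap1 rose by 2.51, Ticam2, which links Tlr4 to Ticam1, by 2.71, and Tirap, which links Tlr2 and Tlr4 to Myd88, by 1.94 (edgeR adjusted p = 0.000277, 0.00302 and 0.00315). In LJP mice Myd88 averaged 8.65 CPM, a log2 ratio of -1.24 against Vehicle (edgeR adjusted p = 0.0678). Pik3ap1, Ticam2 and Tirap had log2 ratios of -0.51, -0.08 and -1.06 there (edgeR adjusted p = 0.271, 0.914 and 0.104). Myd88 and Tirap had log2 ratios of 1.19 and 0.84 in Vehicle against Sham without Vehicle mice 1 and 2, still called, and those of Myd88, Tirap and Ticam2 were -0.38, 0.03 and 0.24 in LJP against Vehicle.

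Of 16 kinases and ubiquitin ligases, 6 were called higher and 1 lower, with a median of 0.16, where 22.7% and 17.3% of all genes were called. Irak4, the first kinase recruited by Myd88, rose by a log2 ratio of 2.29, Map3k8 by 2.97, Ikbke by 2.13 and Ripk1 by 1.68 (edgeR adjusted p = 0.000649, 0.00174, 0.00171 and 0.00219). Map3k8 averaged 6.09 CPM in Vehicle and 1.46 in LJP mice, without overlap, a log2 ratio of -2.06 (edgeR adjusted p = 0.0678). Irak4 and Ripk1 had log2 ratios of -0.97 and -1.02 in LJP against Vehicle (edgeR adjusted p = 0.0908 and 0.0766). Of the 16, 5 were called higher and none lower without Vehicle mice 1 and 2. In that fit Map3k8 and Ripk1 had log2 ratios of 1.64 and 0.86 against Sham, and Map3k8, Irak4, Ripk1 and Ikbke had -0.75, -0.44, -0.20 and -0.23 in LJP against Vehicle.

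Transcription factors of the pathway were called higher in 8 of 10 cases, with a median of 0.99. Irf5 and Irf8, interferon regulatory factors of myeloid cells, rose by log2 ratios of 2.04 and 1.96, and Jun and Rela, subunits of AP-1 and NF-kappa B, by 0.91 and 1.20 (edgeR adjusted p = 0.000151, 0.000235, 0.00179 and 0.0021). In LJP against Vehicle, Irf5, Jun and Rela had log2 ratios of -0.81, -0.70 and -0.92 without overlap between the groups (edgeR adjusted p = 0.0699, 0.0678 and 0.0678), and Irf8 one of -0.32 (edgeR adjusted p = 0.36). Of the 10, 7 were called higher without Vehicle mice 1 and 2. In that fit Jun and Rela had log2 ratios of 0.51 and 0.58 against Sham, and Irf5, Jun and Rela had -0.47, -0.30 and -0.32 in LJP against Vehicle.

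Inhibitors of the pathway were called higher in 7 of 11 tested cases and lower in 1. Atf3, a stress-induced repressor, rose by a log2 ratio of 3.91, Irak3, an inactive kinase that blocks receptor signalling, by 2.30, Nfkbia, the inhibitor of NF-kappa B, by 1.78 and Tnfaip3, the deubiquitinase A20, by 0.60 (edgeR adjusted p = 0.000206, 0.00283, 0.00534 and 0.0216). Only 4 of the 11 were called higher without Vehicle mice 1 and 2, Irak3 and Nfkbia had log2 ratios of 1.10 and 0.62, and Tnfaip3, at 0.24, was not called (edgeR adjusted p = 0.271). Cyld, another deubiquitinase, fell from 215 to 103.8 CPM on average, a log2 ratio of -1.05 (edgeR adjusted p = 0.000548). In LJP against Vehicle, Cyld had a log2 ratio of 0.45 and Irak3 one of -1.83 (edgeR adjusted p = 0.0953 and 0.0678). That of Irak3 was -0.63 without Vehicle mice 1 and 2, and those of Atf3, Nfkbia and Tnfaip3 moved from -1.31, -1.39 and -0.70 to -0.50, -0.24 and -0.34.

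Of 7 candidate endogenous ligands that passed the filter, 5 were called higher. Only 5 of the 7 reached the filter in the Sham mice alone, and 3 of these were called. Saa3, an acute phase protein, had 0, 4, 2 and 1 counts in Sham mice, 1180, 290, 89 and 49 in Vehicle mice 1 to 4, and 3, 13, 15 and 10 in LJP mice. Vehicle mouse 1 was again highest. Its log2 ratio was 7.50 against Sham (edgeR adjusted p = 0.000689) and -5.09 in LJP against Vehicle (edgeR adjusted p = 0.0678). Without Vehicle mice 1 and 2 these were 5.18 and -2.78. Lcn2, an iron-carrier binding protein of neutrophils and reactive astrocytes, was at 166.3, 106.5, 16.5 and 16.6 CPM in Vehicle mice and 5 to 13.9 CPM in LJP mice. Tnc, a matrix glycoprotein, averaged 4.12 CPM in Sham, 84.0 in Vehicle and 17.2 in LJP mice. The log2 ratios of Lcn2 and Tnc in LJP against Vehicle were -2.81 and -2.29, and -0.61 and -0.88 without Vehicle mice 1 and 2. S100a8 and S100a9, ligands of Tlr4 and products of neutrophils, were removed by the count filter of the edgeR fit, while DESeq2 called both higher in Vehicle than in Sham mice and lower in LJP than in Vehicle mice. S100a8 reached 1159 and 278 counts in Vehicle mice 1 and 2 with 4 and 33 in Vehicle mice 3 and 4.

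Target genes of the receptors were called higher in 9 of 10 tested cases. Only 4 of the 10 reached the filter in the Sham mice alone, and 3 of these 4 were called. The fit without Vehicle mice 1 and 2 called 6 of the 10, and Cd40 and Nos2 moved from log2 ratios of 1.96 and 2.92 to 0.50 and 0.99 (edgeR adjusted p = 0.467 and 0.22). Spp1, which encodes osteopontin, averaged 8.10 CPM in Sham, 740.2 in Vehicle and 245.2 in LJP mice. The chemokines Ccl3 and Ccl4 rose by log2 ratios of 3.25 and 4.12 (edgeR adjusted p = 0.000428 and 0.00105), with Ccl4 at 0 to 4 counts in Sham mice, and had log2 ratios of -0.46 and -0.38 in LJP against Vehicle (edgeR adjusted p = 0.421 and 0.618). Cd40 and Nos2, genes of activated myeloid cells, had -2.63 and -3.09 in that comparison (edgeR adjusted p = 0.0678 for each), and Nos2 overlapped between the groups. Without Vehicle mice 1 and 2 they had -1.18 each, Spp1 moved from -1.59 to -0.61, and Ccl4 from -0.38 to -0.85. Another 8 listed targets were removed by the count filter of the edgeR fit. DESeq2, run without that filter, called 3 of these 8 higher in Vehicle than in Sham mice (the cytokines Tnf, Il6 and Il1b), where it called 18.9% of the genes it tested, and it gave the other 5 no adjusted p.

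Outside the 10 genes, the mouse has Tlr5, Tlr11 and Tlr12. Tlr5, the flagellin receptor, had 4 to 15 counts in Sham mice, 9 to 21 in Vehicle mice and 3 to 6 in LJP mice. LJP and Vehicle did not overlap, and the log2 ratios were 0.70 in Vehicle against Sham and -1.69 in LJP against Vehicle (edgeR adjusted p = 0.182 and 0.0678). Without Vehicle mice 1 and 2 these were 0.36 and -1.35. Tlr12 had 8 to 30 counts per mouse and passed no test. Tlr11 had 0 counts in all 12 mice, which allows at most 3 counts per mouse, or 0.135 to 0.167 CPM, by counting error alone.

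Across all genes tested, those whose level followed a receptor most closely within groups were listed by Pearson's r of log2 CPM over the 12 mice after subtraction of group means. For Cd14 they were Cxcr4, Ubxn4 and Ehd1 (r = 0.97, 0.97 and 0.96). For Tlr4 they were Ormdl1, Bola2 and Gins3 (0.96, 0.96 and 0.94), and for Tlr7 Ezh2, Tmem97 and Tmed5 (0.95 each). For Tlr2 they were Arhgef26, Gnpda1 and Dock8 (0.94, 0.92 and 0.91). For each receptor these are the 3 highest of 17558 genes, in libraries that share depth and cell make-up, and they are given as a description. Without Vehicle mouse 2 these values lay between 0.90 and 0.96.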

How the data were processed

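Hemisphere RNA of 12 mice was sequenced, and the groups Sham, Vehicle and LJP, of 4 mice, follow the sample labels. The authors deposited raw read counts per gene and mouse, without normalization. Per the study's methods, libraries were prepared from polyadenylated RNA and read from both ends. The submitters' processing notes list featureCounts and DESeq2 and the builds GRCm39 and mm10. The aligner and the strand setting are not given in the sources used here. Gene positions in the table equal those of RefSeq GRCm38.p6 for 39730 of 39756 genes (99.93%).

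Genes were tested with edgeR 4.0.16 (R 4.3.3). filterByExpr kept 17558 of the 30210 genes with a count. The quasi-likelihood fit used TMM factors and took in all 12 mice, with the 3 groups as its terms. Benjamini-Hochberg adjustment covered every gene tested, and an adjusted p below 0.05 was counted as called. Standard errors were derived from the F statistic and intervals are 95% intervals of the single gene. Log2 CPM used a prior count of 2. The fit was tested on simulated data. Promoters came from the RefSeq table and transcripts from GENCODE M21.

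Total counts of 17960353 to 22216315 per mouse put the floor of 3 counts at 0.135 to 0.167 CPM, and floors cover counting error only. Replicates in a group differed by more than sampling noise (chi-square per degree of freedom at least 2.56). The labels give separate mice and name no batch that differs between them, and a batch effect was not tested.

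The 10 members, the pathway and marker lists and the tests were chosen with earlier results of these data known. The text names every member, the receptors outside the members, the 3 genes with the smallest p-values of each pathway list in Vehicle against Sham and in LJP against Vehicle, and the 3 genes most like each of Tlr2, Tlr3, Tlr4, Tlr7 and Cd14, of which those for Tlr3 are not reported here. S100a8, S100a9, Tnf, Il6, Il1b, Ly96 and Fam114a1 were named after their values were seen. Same-numbered mice of different groups were not paired. Alternatives were DESeq2 1.42.0, RLE and library size scaling, no filter, a fit without the group outside the comparison, a replicate block, the thresholds of the study's methods, another marker reference and leaving out each mouse. Leaving out Vehicle mice 1 and 2, and leaving out mice from the levels relative to marker genes, were added after seeing the data. Other assays of the study were not analysed here.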

Additional observations from a re-analysis of the deposited data

Results flagged for a closer look

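In each group of 4 mice, the gap between an extreme mouse and its nearest neighbour was divided by the group's range for the 10 members, Tlr5 and Tlr12, and 3 of 36 groups exceeded the 95% critical value of Dixon's test. About 1.8 would by chance. Tlr2 was highest in Sham mouse 2, with a ratio of 0.92, from 18 counts against 10 and 11 in the other Sham mice. Tlr7 was highest in Vehicle mouse 2, with a ratio of 0.835, at 24.6 CPM against 10.8 to 13.1 CPM in the other Vehicle mice. Tlr12 was highest in Vehicle mouse 4, with a ratio of 0.895, from 27 counts against 12 to 17.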

How the results depend on the processing

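In Vehicle against Sham, 9 members were called under every alternative except the fit without Vehicle mouse 3, which called 10, and the median log2 fold change of the members stayed between 2.28 and 2.97. The thresholds of the study's methods gave 3807 genes in place of 7014. In LJP against Vehicle the counts depended on the processing, and the cause was not tested. For members, DESeq2 called 4, the fit with no filter 1, the thresholds of the methods 4, and fits without single mice 0 to 4, with 4 without Vehicle mouse 3 or Vehicle mouse 4. For pathway genes these were 30, 16 and 22, and 0 to 34. For all genes, in place of 4, they were 2298, 593 and 1223, and 3 to 3857, with 2 in the fit of 2 groups and 8 without Vehicle mice 1 and 2. The members' median was -0.42 without that pair, against -0.77. In LJP against Sham, fits without single mice called 3 to 7 members, 15 to 29 pathway genes and 393 to 2357 of all genes, in place of 6, 21 and 834. There were 3 members without Sham mouse 1 or LJP mouse 3 and 4 without Sham mouse 2 or Sham mouse 4. DESeq2 called 1458 of all genes, and the fit of the 2 groups 4043 and 35 pathway genes, with Tlr6 and Tlr8 removed by its filter.

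The sign of some differences turned. In LJP against Vehicle, the log2 fold change of Tlr3 ranged from -0.21 to 0.045 without single mice, positive without Vehicle mouse 2 or LJP mouse 2, and was 0.068 without Vehicle mice 1 and 2. Cd180 ranged from -0.33 to 0.18 and was positive without Vehicle mouse 2, 3 or 4 and without LJP mouse 2 or 4. Ticam2 ranged from -0.41 to 0.17, positive without Vehicle mouse 2 or LJP mouse 2 or 4, and was 0.24 without Vehicle mice 1 and 2, where Tirap was at 0.027. In Vehicle against Sham, Tlr12 ranged from -0.23 to 0.26, negative without Vehicle mouse 4 or Sham mouse 3. Relative to homeostatic microglia in place of pan-myeloid genes, Tlr9, Tlr4 and Tlr6 turned from -1.22, -0.28 and -0.38 to 0.44, 1.39 and 1.28 in Vehicle against Sham, and Tlr6 and Tlr4 from -0.81 and -0.73 to 0.087 and 0.17 in LJP against Sham. Against the pan-myeloid genes the groups had not overlapped for Tlr9 in the first of these comparisons and for Tlr6 in the second. In LJP against Vehicle Tlr1, Tlr3, Tlr7 and Tlr9 turned from positive to negative, and Tlr3 was at 0.29 against the microglia genes without Vehicle mice 1 and 2. Library size scaling shifted the median of all genes by at most 0.08.

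The replicate numbers did not pair the mice. Same-numbered mice had correlations of -0.32 to 0.11, and 1 of 12 mice was most like its own number. With the replicate block, 9, 0 and 4 members were called in Vehicle against Sham, LJP against Vehicle and LJP against Sham, and 6110, 2 and 464 of all genes.

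Depth limited Tlr1, Tlr6 and Tlr8, with 2 to 13 counts in each Sham mouse. The planned change of pseudocount for members removed by the filter was not run, since the filter removed no member.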
